A study of Mus musculus with 6 samples.

Results

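The kinesin superfamily was followed in primary lung fibroblasts treated with 4-hydroxytamoxifen (4OHT), the active metabolite of tamoxifen. The members were all genes whose single annotated symbol is Kif followed directly by a digit, which gave 38 of the 22180 genes measured, each represented by its probe set of highest mean. Of the 38, 12 were assigned from textbook roles to mitosis, 13 to cargo transport, 6 to cilia and 6 to other roles, and Kif4-ps is annotated as a transcribed pseudogene.

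The treated group was 3 wells that received 1 µg/ml 4OHT for 48 h, and the control group was 3 wells that received vehicle, which gave 6 arrays. All wells held fibroblasts of adult mice of mixed strain carrying UBCCreERT2:R26RSmoM2, in which a tamoxifen-activated Cre recombinase driven by the broadly active ubiquitin C promoter switches on SmoM2, a constitutively active form of the hedgehog transducer Smoothened. The vehicle wells carried the same alleles, so the drug, the activity of Cre and the activated SmoM2 cannot be told apart. Freshly isolated cells were plated into triplicate wells, and no label says that the wells hold cells of separate animals. The p-values below therefore rest on well-to-well spread alone, part or all of which may be technical.

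Kinesins are motors that walk along microtubules or shorten them, using ATP in a conserved motor domain. Mitotic kinesins build the spindle, move chromosomes and prepare the cell for its final separation, and their genes are expressed mainly in cells that approach or pass through division. Transport kinesins carry vesicles, organelles and RNA towards the cell periphery in dividing and resting cells alike. Kif7 and the kinesin that Kif3a forms with Kif3b act in the primary cilium, where Smoothened sends its signal.

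The arrays were alike within a group, with Pearson's r of 0.997 to 0.998 for pairs of one group and 0.995 to 0.996 for pairs of both. These r are taken across genes, and genes are no independent replicates. At an adjusted p under 0.05, 2662 genes (12.0%) were called over the whole table. This count was 1473, 1220 and 2326 without 4OHT replicate 1, 2 or 3. It was 1585, 1336 and 1881 without vehicle replicate 1, 2 or 3. All 7 fibroblast markers lay above the median level of all genes, and 6 of them, among them Col1a1, Dcn and Pdgfra, did not pass the test. Col3a1 was lower, at a log2 fold change of -0.29, a share of 14.3% called beside 12.0% of all genes. For 4 of the 7 every 4OHT well was below every vehicle well, beside 17.8% of all genes. The log2 of the summed level of the 7 was 15.90 to 15.93 in 4OHT wells and 15.96 to 16.01 in vehicle wells, which do not overlap. Of 6 markers of smooth muscle or pericytes 4 were lower (66.7%, beside 6.62% of all genes). The log2 of the summed level of these 6 was 14.90 to 14.94 in 4OHT wells and 15.17 to 15.18 in vehicle wells. Of 6 endothelial markers 3 were lower and 2 higher (83.3% called, beside 12.0% of all genes). Their sum was 9.44 to 9.45 in 4OHT wells and 9.69 to 9.81 in vehicle wells. Of 6 markers of macrophages and leukocytes 1 was higher and 1 lower (33.3% called, beside the same 12.0%). Of 6 of lung epithelium none was higher and 1 lower (16.7%), and of 4 of mesothelium 1 was higher and 2 lower (75%). The summed levels were 10.97 to 11.05 in 4OHT wells and 10.98 to 11.06 in vehicle wells for macrophages and leukocytes, which overlap. The sums did not overlap for lung epithelium (10.83 to 10.89 in 4OHT wells, 10.93 to 11.02 in vehicle wells) or mesothelium (13.85 to 13.91 in 4OHT wells, 14.04 to 14.06 in vehicle wells). For lung epithelium the marker called lower was Krt8, and 4 of the 6 markers had a log2 fold change above 0. RMA values have no true 0, so no marker can be called absent. Whether these cell types had a part in the kinesin values was not tested. In bulk RNA, fewer cells of a type and less RNA per cell cannot be told apart.

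The promoters of the mitotic kinesins are shown first because most of them hold a short motif that most other kinesin promoters lack. TTTGAA is the core of the cell cycle genes homology region (CHR), the element through which the DREAM and MuvB complexes are known to control many genes of late cell cycle phases. RefSeq windows of 250 bases before to 50 after the start (GRCm38.p6) were found for 31 kinesins. On either strand, TTTGAA stood in the windows of 9 of 11 mitotic kinesins, in 3 of 20 kinesins of other classes, and in 17.9% of all 32851 windows. Among the mitotic kinesins whose expression fell (described below) it was 9 of 10. A gene was counted where any of its windows held the motif. The stretches below hold the TTTGAA nearest the start of each of the 9 genes, read on the strand of the gene, with TTTGAA or its reverse complement TTCAAA in capitals.
Kif11, chr19:37376351-37376380, plus strand: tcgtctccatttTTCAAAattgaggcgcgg
Kif23, chr9:61946780-61946809, minus strand: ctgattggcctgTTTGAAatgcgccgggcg
Kif4, chrX:100626072-100626101, plus strand: ctctgggatcaaTTTGAAacttggcggtta
Kif2c, chr4:117178858-117178887, minus strand: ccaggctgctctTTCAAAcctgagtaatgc
Kif18b, chr11:102925104-102925133, minus strand: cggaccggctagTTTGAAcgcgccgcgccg
Kif15, chr9:122951050-122951079, plus strand: tggggcgccaaaTTCAAAtctgcggccatc
Kif20b, chr19:34922353-34922382, plus strand: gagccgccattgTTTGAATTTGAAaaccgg
Kif14, chr1:136467608-136467637, plus strand: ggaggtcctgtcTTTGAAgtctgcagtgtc
Kif22, chr7:127042420-127042449, minus strand: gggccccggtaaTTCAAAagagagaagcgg

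In 7 of the 9 genes the first base of the motif lay within 20 bases of the start, between 19 bases before it in Kif11 and Kif15 and base 20 after it in Kif4. In Kif2c and Kif14 it lay 103 and 228 bases before the start, and in these genes the annotated start itself lies 3852 and 1547 bases inside the 5′ end of the gene. Kif20b holds TTTGAA in direct repeat. Kif18a, which had the largest adjusted p of the mitotic kinesins that fell, has no TTTGAA in its window, and neither has Kif2b, the mitotic kinesin that was not called. No window was found for Kif20a, which also fell. Outside the mitotic class, the annotated starts of Kif27, Kif26a and Kif3a likewise lie 9798, 2234 and 1668 bases inside the gene. The motif was chosen with the expression results known, and a match is a description of the letters and not a binding site.

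The CCAAT box, bound by NF-Y, often stands beside such elements. CCAAT, on either strand, was found in 7 of 11 mitotic kinesins, in 7 of 20 other kinesins and in 37.4% of all windows. Among the mitotic kinesins that fell it was 6 of 10. The bases of Kif11 from 250 before to 1 before the start (chr19:37376132-37376381, plus strand) show both motifs in capitals, with the CCAAT box as ATTGG.
Kif11: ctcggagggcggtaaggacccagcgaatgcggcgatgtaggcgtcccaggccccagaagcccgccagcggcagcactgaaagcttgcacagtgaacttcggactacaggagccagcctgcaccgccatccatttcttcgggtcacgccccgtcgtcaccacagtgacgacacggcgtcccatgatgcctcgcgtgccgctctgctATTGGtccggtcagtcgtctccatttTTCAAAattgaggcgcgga

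The same bases of Kif1a, the kinesin that rose most, are given for contrast (chr1:93101875-93102124, minus strand). They hold neither motif, nor TTCGAA (1.56% of all windows), nor the E-box CACGTG (7.15% of all windows).
Kif1a: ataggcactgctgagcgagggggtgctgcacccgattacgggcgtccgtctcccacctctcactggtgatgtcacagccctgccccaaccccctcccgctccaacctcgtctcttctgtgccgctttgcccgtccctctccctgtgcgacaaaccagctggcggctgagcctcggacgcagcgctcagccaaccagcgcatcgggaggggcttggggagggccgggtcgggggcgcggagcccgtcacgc

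A second annotated start of Kif1a lies 19559 bases inside the gene, and its window holds TTTGAA 44 bases and CACGTG 116 bases before that start. The other windows outside mitosis with TTTGAA were those of Kif27 and Kif26b. In Kif26b the motif begins 9 bases before the start.

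The first comparison asked which kinesins differ between 4OHT and vehicle wells. 15 of 38 passed an adjusted p under 0.05 (39.5%, against 12.0% of all genes), tested with limma over all genes with Benjamini-Hochberg adjustment. 12 of the 15 fell and 3 rose, where 6.62% of all genes were lower and 5.38% higher. In the mitotic class 11 of 12 members were lower, and no transport or cilium kinesin was. The wells of the groups did not overlap for 20 of the 38 kinesins, 13 with 4OHT below and 7 with 4OHT above, where 32.7% of all genes were separate in either direction. The median log2 fold change was -1.0 in the mitotic class and 0.07 in the transport class, beside -0.01 over all genes. The median distance of the mitotic kinesins from their vehicle means was -1.09, -1.14 and -0.86 on the log2 scale in 4OHT wells 1 to 3, against -0.01, 0.02 and 0.02 in the vehicle wells. For the transport class the same value was 0.09, 0.08 and 0.06 in 4OHT wells and -0.04, -0.01 and 0.04 in vehicle wells.

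**Figure D1:**
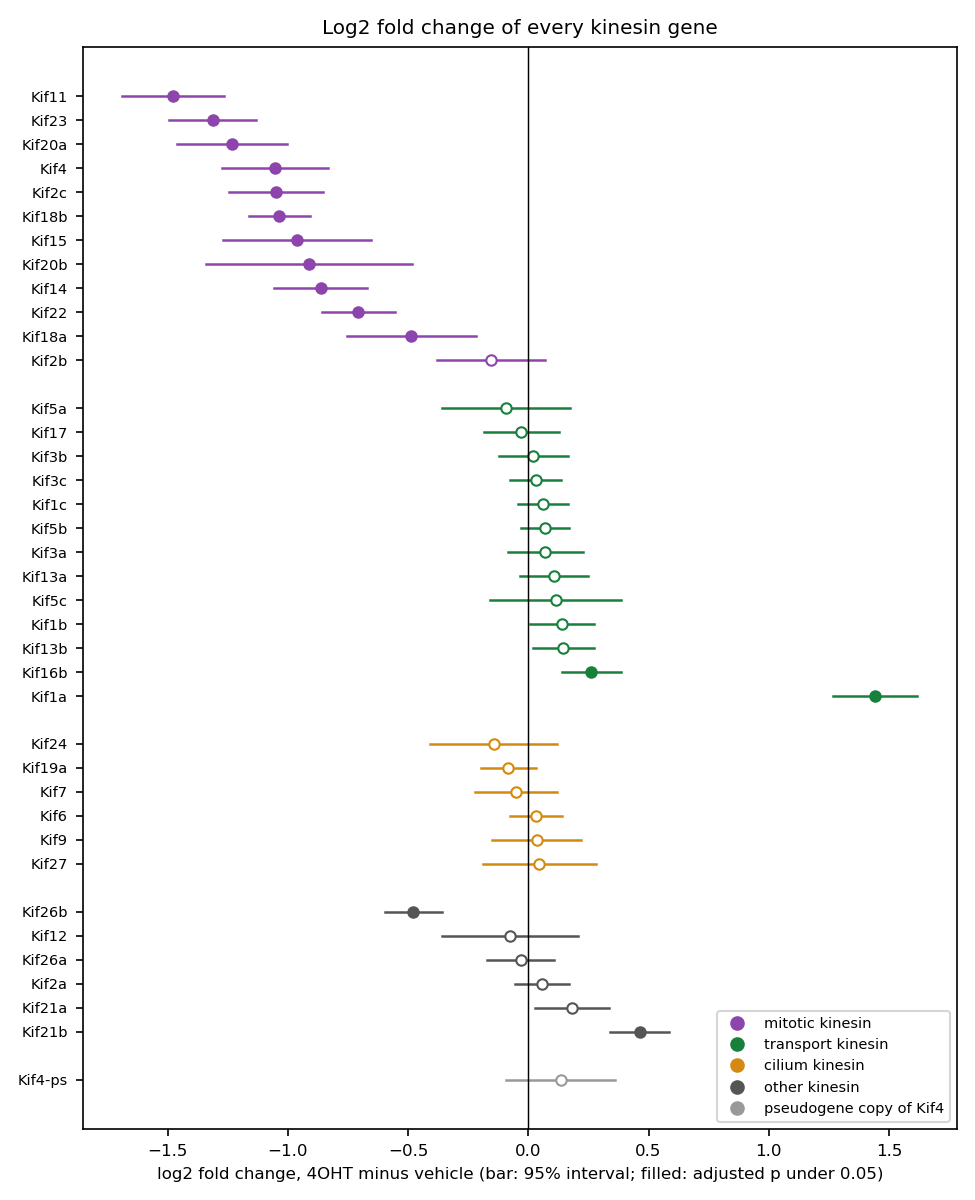
Log2 fold change of every kinesin (4OHT minus vehicle, x axis) with its 95% interval, grouped and coloured by class; filled points passed an adjusted p under 0.05. 11 of 12 mitotic kinesins lie left of 0 and filled, while of 13 transport kinesins only Kif1a and Kif16b are filled, on the right.

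Both motors that push the spindle poles apart fell, and Kif11 had the largest fall of all 38 kinesins. Kif11 (Eg5), a four-headed motor that slides spindle microtubules apart and makes the spindle bipolar, had log2 expression of 7.83, 7.68 and 8.04 in 4OHT wells, against 9.34, 9.33 and 9.31 in vehicle wells. The groups were more than 1 log2 unit apart, and the vehicle wells agreed within an SD of 0.01. Kif11 was 2.78-fold lower (a log2 change of -1.48 with an SE of 0.089 and a 95% interval from -1.69 up to -1.27, adjusted p = 0.000346). Kif15, which can share the work of Kif11 once the spindle has formed, had 6.63, 6.23 and 6.67 in 4OHT wells, against 7.43, 7.62 and 7.37 in vehicle wells. It was 1.95-fold lower (a log2 change of -0.96 with an SE of 0.129, adjusted p = 0.00541).

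The motors of the central spindle and of cytokinesis fell together. Kif23 (MKLP1), which forms the centralspindlin complex with Racgap1, had 7.52, 7.44 and 7.72 in 4OHT wells, against 8.87, 8.90 and 8.84 in vehicle wells. It was 2.48-fold lower (a log2 change of -1.31 with an SE of 0.076, adjusted p = 0.000318). Kif20a (MKLP2), which brings the Aurora B complex to the central spindle, had 8.83, 8.57 and 8.91 in 4OHT wells, against 10.01, 9.92 and 10.07 in vehicle wells. It was 2.35-fold lower (a log2 change of -1.23 with an SE of 0.096, adjusted p = 0.000773). The intervals of Kif11, Kif23 and Kif20a overlap, so these 3 falls are not told apart by size.

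Kif20b, a motor of late cytokinesis, had 5.81, 5.84 and 6.46 in 4OHT wells, against 7.0, 6.80 and 7.06 in vehicle wells. 4OHT well 3 stood apart from the other 4OHT wells and still below every vehicle well. The log2 fold change was -0.91 (SE 0.179, adjusted p = 0.0218). The call was lost without 4OHT replicate 1 (adjusted p = 0.0707), 4OHT replicate 2 (0.0774), vehicle replicate 1 (0.0688), vehicle replicate 2 (0.0512) or vehicle replicate 3 (0.0692), and with all probe sets fitted (0.0557). Kif14, which works with citron kinase in cytokinesis, had 6.36, 6.29 and 6.27 in 4OHT wells, against 7.17, 7.33 and 7.02 in vehicle wells, and was 1.82-fold lower (adjusted p = 0.00141). Kif14 kept its call in all 14 alternatives.

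The chromokinesins, which bind chromosome arms, were lower as well. Kif4, which also ends microtubule growth in the central spindle with Prc1, had 6.34, 6.31 and 6.65 in 4OHT wells, against 7.47, 7.49 and 7.51 in vehicle wells. It was 2.07-fold lower (a log2 change of -1.05 with an SE of 0.092, adjusted p = 0.00109). Kif4-ps, the annotated pseudogene, had 5.98, 6.25 and 6.04 in 4OHT wells and 5.89, 5.87 and 6.11 in vehicle wells, which overlap (adjusted p = 0.432). Probes of such a copy can read transcripts of the parent gene, which was not tested. Kif22 (Kid), which pushes chromosome arms away from the poles, had 7.5, 7.31 and 7.38 in 4OHT wells, against 8.11, 8.04 and 8.17 in vehicle wells, and was 1.63-fold lower (adjusted p = 0.00124).

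The motors that shorten or steady microtubule ends differed among themselves. Kif2c (MCAK), a depolymerase that frees wrongly attached chromosomes, had 7.07, 7.0 and 7.29 in 4OHT wells, against 8.11, 8.22 and 8.19 in vehicle wells, and was 2.07-fold lower (adjusted p = 0.000785). Kif18b, which works with Kif2c on astral microtubules, had 7.45, 7.54 and 7.47 in 4OHT wells, against 8.51, 8.47 and 8.60 in vehicle wells. Kif18b was 2.05-fold lower with the smallest SE of the class (0.053, adjusted p = 0.00022). Its close relative Kif18a, which damps the swings of aligned chromosomes, had 7.27, 7.16 and 7.46 in 4OHT wells, against 7.58, 7.87 and 7.91 in vehicle wells. The 4OHT wells all lay below the vehicle wells. The log2 fold change of Kif18a was -0.49 (-0.75 to -0.22 as the 95% interval, adjusted p = 0.037), and its interval lay wholly above that of Kif18b (-1.16 to -0.91). The Kif18a call was lost without 4OHT replicate 1 (adjusted p = 0.114), 4OHT replicate 2 (0.118), vehicle replicate 2 (0.117) or vehicle replicate 3 (0.101), and with all probe sets fitted (0.0837).

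Kif2b, a kinetochore depolymerase, was the mitotic kinesin that did not pass. It had 5.86, 5.54 and 5.67 in 4OHT wells and 5.83, 5.96 and 5.74 in vehicle wells, which overlap (log2 fold change -0.16, 95% interval -0.38 to 0.07, adjusted p = 0.357). Its probe set lay below the median level of all genes, as did those of Kif4, Kif14, Kif15 and Kif20b. Among the 11 mitotic kinesins that fell, 4OHT well 3 was the highest 4OHT well for 8 genes and 4OHT well 2 the lowest for 8. These genes share their arrays, so the counts describe the wells and not separate genes. For all 11 every 4OHT well was below every vehicle well, a separation that 17.8% of all genes showed.

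**Figure D2:**
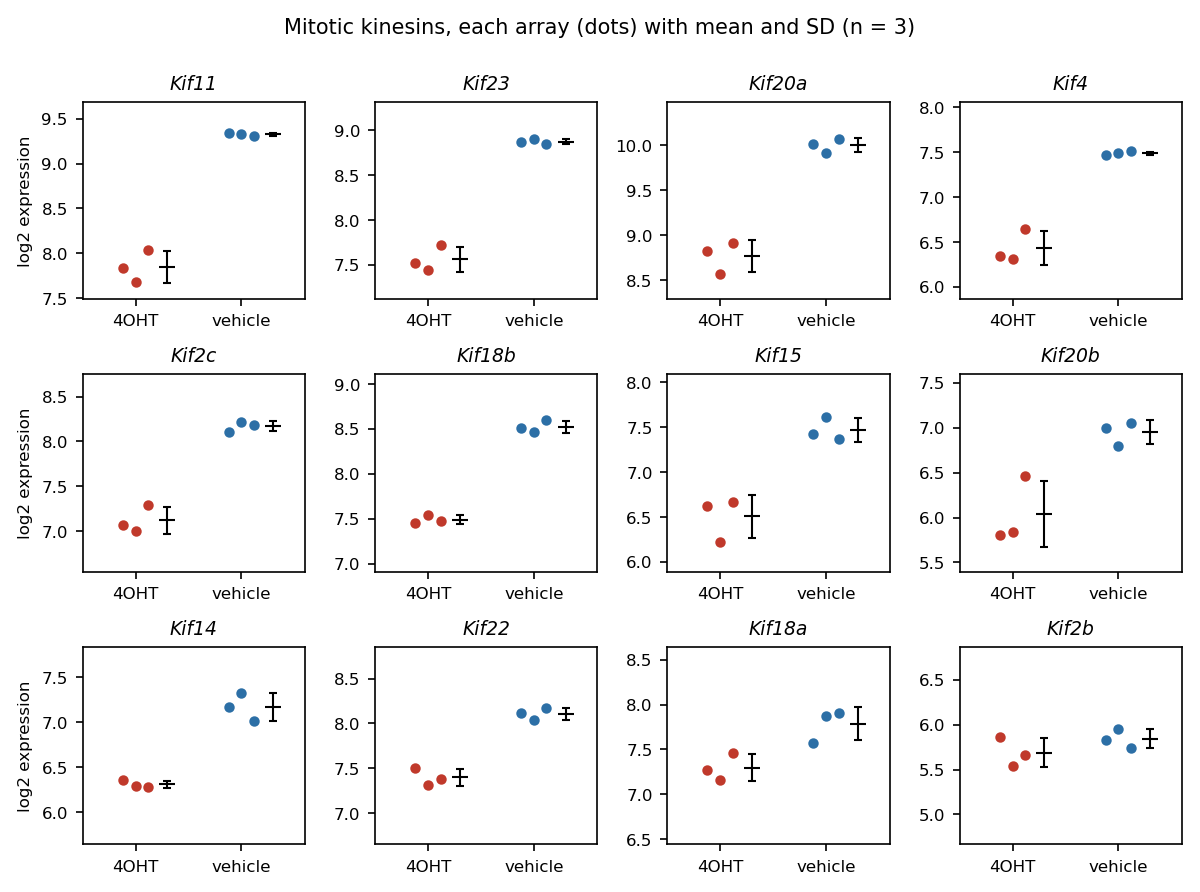
Log2 expression (y axis, 2.2 log2 units in each panel) of the 12 mitotic kinesins in each 4OHT well (red) and each vehicle well (blue), with mean and SD (black, n = 3 each). The groups are separate in 11 panels and overlap for Kif2b.

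Of 13 transport kinesins 2 rose and none fell, a share of 15.4% that is near the 12.0% of all genes called. The other 11 had log2 fold changes between -0.09 and 0.15, with 95% intervals that stayed between -0.36 and 0.39. Over the whole class 11 of 13 had a log2 fold change above 0, as had 10778 of all 22180 genes. For 5 of the 13 every 4OHT well was above every vehicle well, beside 15.0% of all genes. Kif1a differed most. It is the motor that carries synaptic vesicle precursors and dense core vesicles in neurons, and it had 10.15, 10.22 and 10.00 in 4OHT wells, against 8.59, 8.76 and 8.70 in vehicle wells. Every 4OHT well was more than 1 log2 unit above every vehicle well. Kif1a was 2.72-fold higher (a log2 change of 1.44 with an SE of 0.074 and a 95% interval from 1.27 up to 1.62, adjusted p = 0.00022) and kept its call in all 15 alternatives.

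Kif1a is best known from neurons. Of 7 neuronal markers none was higher and 1, Tubb3, was lower, a share of 14.3% that is near the 12.0% of all genes called. Only 2 of the 7 lay above the median level of all genes. The log2 of the summed level of the 7 was 9.96 to 10.02 in 4OHT wells and 10.39 to 10.47 in vehicle wells. Without Tubb3 the sum of the other 6 was 9.25 to 9.26 in 4OHT wells and 9.22 to 9.32 in vehicle wells, which overlap. Snap25, Syt1 and Nefl did not pass. Of 6 measured markers of Schwann cells and melanocytes only Pmel was higher, at a log2 fold change of 0.22. That share of 16.7% is also near 12.0%, and all 6 lay below the median level of all genes.

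Kif16b, which moves early endosomes, had 9.20, 9.31 and 9.27 in 4OHT wells, against 8.95, 8.99 and 9.05 in vehicle wells, and was 1.2-fold higher (a log2 change of 0.26 with an SE of 0.052, adjusted p = 0.022). The groups did not overlap, but the call was lost without 4OHT replicate 2 (adjusted p = 0.0849), 4OHT replicate 3 (0.0568), vehicle replicate 1 (0.0751) or vehicle replicate 2 (0.0795), with the replicate number as a block (0.0531) and with all probe sets fitted (0.0624). The nearest relatives of Kif1a showed smaller differences. Kif1b, which carries mitochondria, lysosomes and synaptic vesicle precursors, had 10.80, 10.78 and 10.65 in 4OHT wells, against 10.56, 10.60 and 10.65 in vehicle wells (log2 fold change 0.14, 95% interval 0.01 to 0.27, adjusted p = 0.168). Kif1c, which carries integrin-bearing vesicles, had a log2 fold change of 0.06 (-0.04 to 0.16 as the 95% interval). Both intervals lie wholly below that of Kif1a.

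Kif13a and Kif13b, motors for vesicles of the Golgi and the cell surface, had log2 fold changes of 0.11 and 0.15 (adjusted p = 0.304 and 0.141). Kif13b passed where only genes above the median level were tested (adjusted p = 0.0438), a fit that called 3884 of 11090 genes.

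None of the conventional kinesins, the heavy chains of the general cargo motor, passed. Kif5b, the form made in most tissues, had 12.42, 12.40 and 12.39 in 4OHT wells, against 12.36, 12.30 and 12.35 in vehicle wells. The groups did not overlap, as was so in this direction for 15.0% of all genes, but the difference was small (log2 fold change 0.07, 95% interval -0.03 to 0.17, adjusted p = 0.354). Kif5a and Kif5c, the neuronal forms, had log2 fold changes of -0.09 and 0.11 (adjusted p = 0.665 and 0.591), and their groups overlapped. Of the Kif3 motors, Kif3a had 9.25, 9.18 and 9.12 in 4OHT wells and 9.0, 9.19 and 9.14 in vehicle wells, with a log2 fold change of 0.07 (-0.08 to 0.23 as the 95% interval). Kif3b, its main partner, had a log2 fold change of 0.02, Kif3c of 0.03 and Kif17, a dendritic and ciliary motor, of -0.03, none of which passed.

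**Figure D3:**
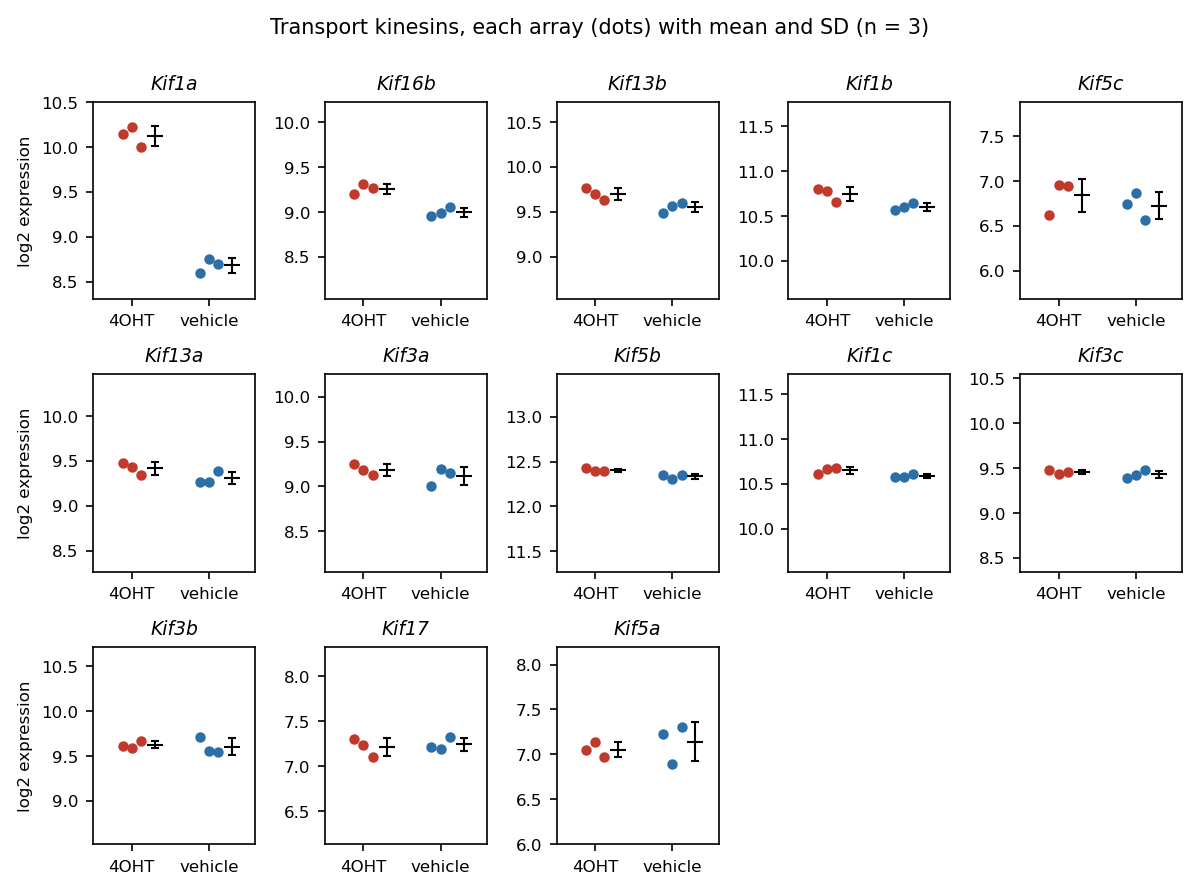
Log2 expression (y axis, 2.2 log2 units in each panel) of the 13 transport kinesins in each 4OHT well (red) and each vehicle well (blue), with mean and SD (black, n = 3 each). The groups are far apart for Kif1a, apart by less for Kif16b, and close together or overlapping for the others.

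None of the 6 cilium kinesins passed, and with 12.0% of all genes called a count of 0 in so few says little about the class. Kif7, which organizes the tip of the primary cilium and regulates Gli proteins in hedgehog signalling, had 7.95, 7.82 and 8.05 in 4OHT wells and 7.92, 8.05 and 8.0 in vehicle wells. These overlap (log2 fold change -0.05, 95% interval -0.22 to 0.12, adjusted p = 0.703). Kif24, a depolymerase that restrains the assembly of cilia, had a log2 fold change of -0.14 (-0.41 to 0.12 as the 95% interval). Kif6, Kif9, Kif19a and Kif27, known mainly from motile cilia and sperm tails, had log2 fold changes between -0.08 and 0.05. None of 5 measured markers of ciliated cells was called either, and all 5 lay below the median level.

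In the remaining class Kif21b rose, Kif26b fell and 4 members did not pass, a share of 33.3% called beside 12.0% of all genes. Kif21b, which slows the growth of microtubules, had 10.13, 10.18 and 10.16 in 4OHT wells, against 9.62, 9.69 and 9.76 in vehicle wells, and was 1.38-fold higher (a log2 change of 0.46 with an SE of 0.052, adjusted p = 0.00263). Kif26b, an atypical kinesin linked to Wnt5a signalling and to the adhesion of mesenchymal cells, had 11.19, 11.06 and 11.15 in 4OHT wells, against 11.60, 11.61 and 11.63 in vehicle wells. It was 1.39-fold lower (a log2 change of -0.48 with an SE of 0.049, adjusted p = 0.00195). Both kept their calls in all 15 alternatives. Kif21a, the closest relative of Kif21b, had a log2 fold change of 0.18 (0.03 to 0.33 as the 95% interval, adjusted p = 0.134). It passed without 4OHT replicate 3 (adjusted p = 0.0278) and among genes above the median level (0.0433), where 3884 of 11090 genes were called. Kif26a, Kif12 and Kif2a had log2 fold changes of -0.03, -0.08 and 0.06.

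Kinesins are also grouped into families by their motor domains, and 6 families held both called members and members that differed in direction or did not pass. In the kinesin-3 family Kif14 fell by 0.86 on the log2 scale and Kif1a rose by 1.44. In the kinesin-4 family Kif4 fell by 1.05 and Kif21b rose by 0.46, while Kif7, Kif27 and Kif21a did not pass. In the kinesin-13 family Kif2c fell by 1.05, whereas Kif2a, which also acts in neurons and interphase cells, had a log2 fold change of 0.06 (-0.06 to 0.17 as the 95% interval) and did not pass. In the kinesin-12 family Kif15 fell by 0.96 and Kif12 had -0.08 (95% interval -0.36 to 0.21). In each of these pairs the 95% intervals do not overlap. All 3 members of the kinesin-6 family, which are all motors of cytokinesis, fell, where 6.62% of all genes were lower. None of the 7 members of the kinesin-1 and kinesin-2 families was called. With 12.0% of all genes called, a count of 0 in so few says little.

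**Figure D4:**
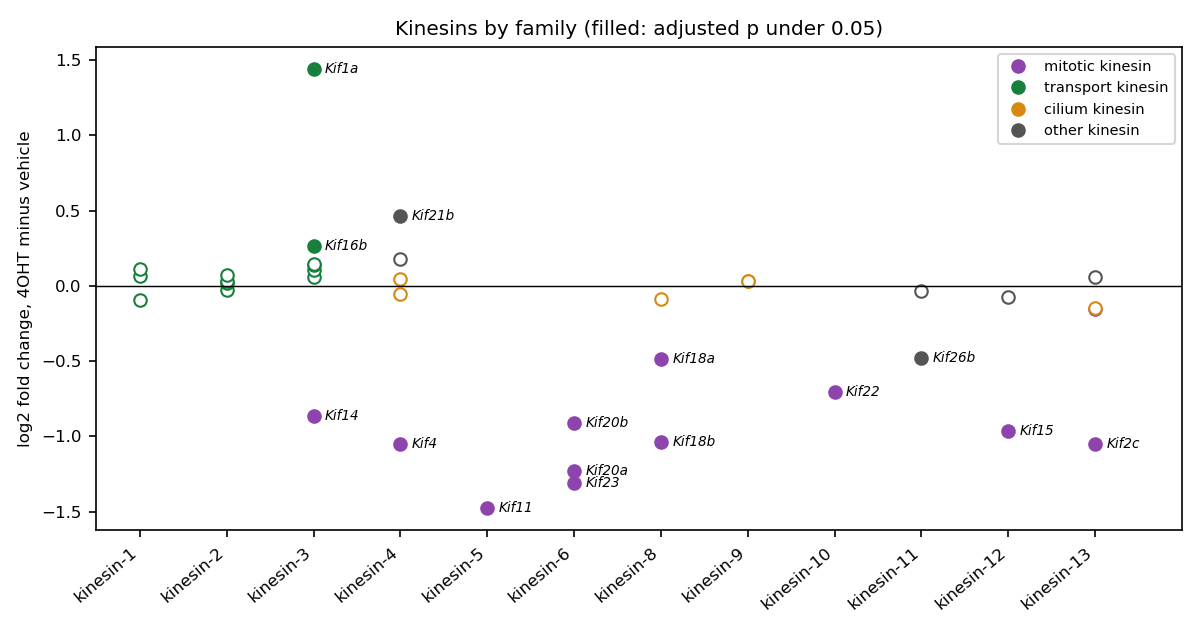
Log2 fold change (4OHT minus vehicle, y axis) of 37 kinesins by family, coloured by class; filled points passed an adjusted p under 0.05 and carry their names. The kinesin-3 and kinesin-4 families hold members on both sides of 0.

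Kinesins whose symbols fall outside the rule were looked at for comparison. Cenpe, the kinetochore motor that moves chromosomes to the spindle equator, had 7.45, 7.39 and 7.42 in 4OHT wells, against 8.33, 8.44 and 8.38 in vehicle wells, and fell by 0.97 on the log2 scale (adjusted p = 0.000188). Kifc3, a minus-end motor of cell junctions and the Golgi, fell by 0.31 (adjusted p = 0.00794). Kifc5b fell by 0.40 (adjusted p = 0.0426), while Kifc1, a spindle motor with which it shares most of its sequence, had a log2 fold change of -0.26 with a wide interval of -0.78 to 0.26, so the values of this pair are uncertain. The Kifc5b call was lost without 4OHT replicate 1 (adjusted p = 0.131), 4OHT replicate 2 (0.136), vehicle replicate 1 (0.117) or vehicle replicate 2 (0.127), and with the replicate number as a block (0.117). Kifc2 had -0.12 (adjusted p = 0.239).

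The genes whose products work with the kinesins were counted by list. Of 17 partners of mitotic kinesins 14 fell and none rose, which is 82.4% lower beside 6.62% of all genes, with a median log2 fold change of -0.97. Prc1, which bundles the central spindle for Kif4, had 8.35, 8.28 and 8.45 in 4OHT wells, against 9.80, 9.88 and 9.77 in vehicle wells, and fell by 1.46 on the log2 scale (adjusted p = 0.000162). Racgap1, the partner of Kif23, fell by 0.97, Ect2, which the pair recruits to start the cleavage furrow, by 1.16, and Tpx2, which brings Kif11 and Kif15 to spindle microtubules, by 1.08. Plk1, Aurka, Hmmr and Kntc1, which encode mitotic kinases, a spindle protein and a checkpoint protein, fell by 1.51, 1.1, 1.24 and 0.89. The 3 that did not pass, named after their values were seen, were Mapre1, Mapre2 and Mapre3, general proteins of growing microtubule ends, with log2 fold changes between -0.07 and 0.08. TTTGAA stood in the promoter windows of 9 of 11 of the partners that fell and had a window, beside 17.9% of all windows. Over all partners with a window it was 9 of 13. CCAAT stood in 9 of the same 11, beside 37.4% of all windows.

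Of 21 light chains and adaptors of transport kinesins 1 rose and 1 fell, a share of 9.52% that is near the 12.0% of all genes called, and the median log2 fold change was -0.01. Plekhm2, which links lysosomes to kinesin through Arl8, rose by 0.25 (10.27, 10.31 and 10.28 in 4OHT wells, against 10.04, 10.05 and 10.02 in vehicle wells, adjusted p = 0.0109). That call was lost without 4OHT replicate 2 (adjusted p = 0.0539) and with the mean of the probe sets of the gene (log2 fold change 0.17, adjusted p = 0.154). Kifap3, which joins the Kif3 motors to cargo, fell by 0.28 (adjusted p = 0.0451), a call lost when any array but 4OHT replicate 3 was left out (lowest adjusted p = 0.0965, vehicle replicate 1 left out, highest 0.146, 4OHT replicate 2 left out) and with the replicate number as a block (0.0806).

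Of 22 genes of cytoplasmic dynein and dynactin, the motor that runs towards the cell centre, 1 rose and 3 fell, which is 18.2% beside 12.0% of all genes, with a median log2 fold change of -0.04. Spdl1, which brings dynein to kinetochores, fell by 0.54 (adjusted p = 0.000939) and kept its call in every alternative. Dync1h1, the heavy chain, rose by 0.40 (12.33, 12.36 and 12.14 in 4OHT wells, against 11.92, 11.83 and 11.87 in vehicle wells, adjusted p = 0.0133). The Dync1h1 call was lost without 4OHT replicate 1 (adjusted p = 0.0539), 4OHT replicate 2 (0.0536) or vehicle replicate 2 (0.0558). Nde1, a dynein regulator, fell by 0.24 and the light chain gene Dynlt3 by 0.19 (adjusted p = 0.0236 and 0.0328). The Nde1 call was lost when any array but 4OHT replicate 3 was left out (adjusted p between 0.0545 and 0.0834), and the Dynlt3 call when any of the 6 was left out (between 0.0669 and 0.122). With the replicate number as a block their adjusted p was 0.0702 and 0.101.

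Among the tubulins, which form the track itself, several were lower. All 15 measured genes had a log2 fold change below 0, as had 51.4% of all genes, and the median was -0.24. Of the 15, 8 fell (53.3%, beside 6.62% of all genes) and none rose. Tubb3 had 8.60, 8.61 and 8.73 in 4OHT wells, against 9.61, 9.60 and 9.54 in vehicle wells, and fell by 0.94 (adjusted p = 0.000279). Tubb6 fell by 0.49 (adjusted p = 0.0032). Tubb2a, Tubg2, Tubb4a and Tubb5 fell by 0.35, 0.35, 0.35 and 0.18 with adjusted p between 0.0179 and 0.04. The count of tubulins lower was 2 without 4OHT replicate 1, 4OHT replicate 2, vehicle replicate 2 or vehicle replicate 3, 4 without vehicle replicate 1, 3 with the replicate number as a block and 5 after centring each array on its median. Tubb3 and Tubb6 kept their calls in every alternative.

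**Figure D5:**
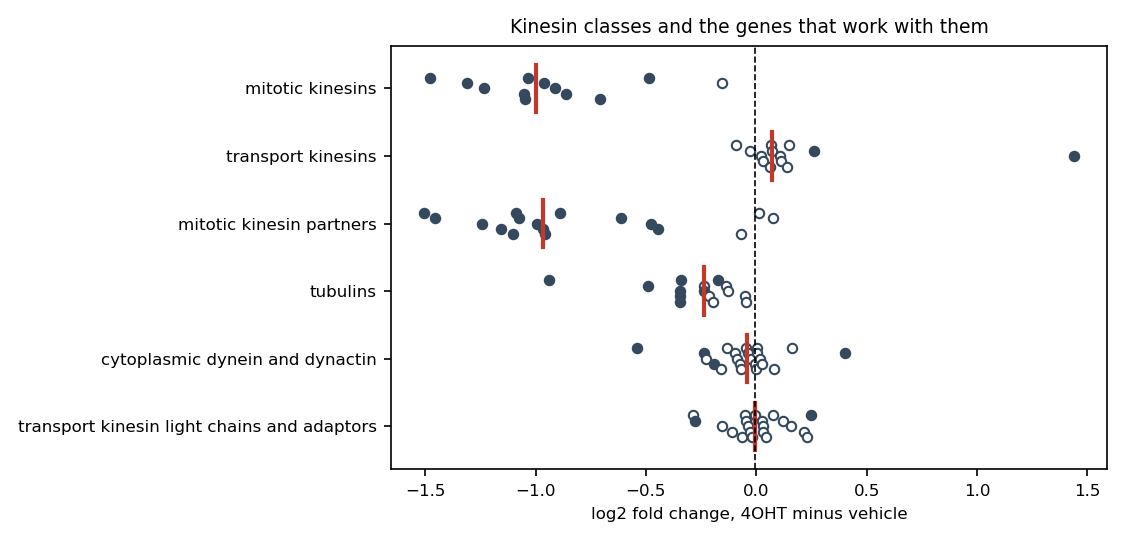
Log2 fold change (4OHT minus vehicle, x axis) of each member of 6 gene groups; filled points passed an adjusted p under 0.05, red bars mark the group medians and the dashed line the median of all genes (-0.01). Mitotic kinesins and their partners centre near -1.0 and -0.97, and the transport kinesins and their adaptors near 0.07 and -0.01.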

How the data were processed

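The values analysed are the log2 levels of probe sets on 6 Affymetrix arrays, as deposited by the authors. The tools listed in the submitters' processing notes are limma, oligo and RMA, without a version number, and a genome build is not stated there. The role of each tool is not given. RMA as usually run corrects the background, makes the distributions of the arrays alike and summarizes probes on the log2 scale, so a shift of all genes would be removed and changes of dim probe sets are compressed. Of 41345 probe sets, 23521 had 1 gene symbol, and the one of highest mean stood for each of 22180 genes. 41 probe sets named the 38 kinesins, and all 38 matched the RefSeq table by gene number.

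The 2 groups were tested with limma 3.58.1 under R 4.3.3 (lmFit and eBayes, two-sided, 6.70 degrees of freedom), with Benjamini-Hochberg adjustment over all genes and a threshold of 0.05. The fit was tested on simulated data. No filter was set on dim genes. Intervals are limma's 95% intervals. The number of arrays limits the precision, and the level of a probe set, which also depends on its probes, was set only against the median of all genes or summed over a marker list.

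The members, classes, motifs and gene lists were chosen with earlier results of these data known. Classes and lists were written from textbook knowledge. The text names every kinesin, every measured kinesin outside the rule, and of each other list the called members up to the 6 of smallest p, with Racgap1, Prc1 and Tpx2 always. Marker genes are named as examples, after their values were seen. Marker lists are described by their counts and by the log2 of the summed linear level. Promoter windows are RefSeq's for GRCm38.p6.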

Additional observations from a re-analysis of the deposited data

How the results depend on the processing

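Of the 15 kinesins called, 12 passed in every alternative run, 9 of them mitotic, and none changed sign; the exceptions were Kif20b, Kif18a and Kif16b. With the replicate number as a block, 1568 genes were called, 648 higher and 920 lower, 1 transport kinesin was higher and 3 tubulins were lower. Deviations of same-numbered wells from their group means had correlations of 0.0624, -0.0239 and 0.0432, and those of differently numbered wells -0.0763 to 0.0315. Values this small, from 3 arrays per group, cannot show whether the numbers pair the samples. A trended and robust spread called 4123 genes, 1828 higher and 2295 lower. An adjusted p under 0.01 left 1010, 395 higher and 615 lower, with 1 transport kinesin higher and 2 tubulins lower. With all probe sets fitted, 1 transport kinesin was higher, 10 kinesins, 9 of them mitotic, were lower, and 2 tubulins were lower. A fit of only the 11090 genes above the median level, which leaves fewer genes to test, called 3884 genes, 1750 higher and 2134 lower. In it 5 of 24 kinesins were higher. The counts of 7 mitotic kinesins and 9 partners lower are smaller there, since dim members are not in that fit. With the arrays centred on their medians 5 tubulins were lower. Counting Kif2a as mitotic, and Kif3a, Kif3b and Kif17 not as transport, moved the median of the transport class to 0.11. Leaving out 1 array at a time gave 1220 to 2326 genes called (486 to 986 higher, 734 to 1340 lower), 2 to 3 kinesins higher, 10 to 12 lower, 9 to 11 mitotic kinesins lower, 1 to 2 transport kinesins higher and none lower, 14 partners lower throughout, and 2 to 6 tubulins lower. The median of the mitotic class then lay between -1.08 and -0.92 and that of the transport class between 0.07 and 0.09. The alternatives for partners, tubulins and other genes outside the rule were added after seeing the data. The cause of these shifts was not tested. The signal over background of each probe set is unknown here, so values of Kif2b, Kif27 and Kif12, which are dim, may be limited by it. Kif20b, Kif14, Kif4 and Kif15, which were called, had similarly low 4OHT means of 6.04, 6.31, 6.44 and 6.51. The sizes of their falls may be limited in the same way.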

Other observations

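Further probe sets of kinesins were read beside those that represent the genes. A second probe set of Kif5b had log2 expression of 6.31, 6.28 and 6.23 in 4OHT wells and 6.07, 6.27 and 6.41 in vehicle wells, which overlap as they did not for the representing one. Second probe sets of Kif7 and Kif27 had log2 fold changes of -0.05 and 0.15 and did not pass (adjusted p = 0.754 and 0.490 over all probe sets). A probe set annotated to Kif3c and 1110002L01Rik differed by 0.12 on the log2 scale (adjusted p = 0.283 over all probe sets), with 10.72, 10.80 and 10.74 in 4OHT wells and 10.60, 10.59 and 10.69 in vehicle wells. Kif24 was the kinesin with the CHR variant TTCGAA in its promoter window, 26 bases before the start.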
